A study of Homo sapiens with 10 samples.

Results

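The HOX genes are the 39 genes of the HOXA, HOXB, HOXC and HOXD clusters, and they were taken as every entry of the count table whose gene name is HOX, a cluster letter and a number. These were 40 of 58735 entries, since HOXC5 has 2 identifiers. RNA was sequenced from A253 cells, an established human line from a squamous carcinoma of a salivary gland, to find genes whose expression differs between control cells and cells edited at DUSP1, a phosphatase that switches off MAP kinases. The control carried a guide RNA against dTomato, and Cl1 and Cl10 carried 2 guides to the introns around exon 2 of DUSP1. Both clones are heterozygous for the deletion of this exon, although the labels call them KO. The paper selected them because western blots showed no DUSP1 protein in them. It proposes that inactivating indels in the remaining allele could be the reason. All cells were transduced with lentiviral guides and then with lentiviral Cas9 and grown in DMEM with serum. The deletion is represented by 2 single-cell clones, each compared with the control on its own, so that in either comparison an effect of the deletion and a property of the clone cannot be told apart. There were 2 libraries for each of the 3 groups. Nothing in the labels says that these came from separate cultures, and p-values then measure only the spread between the libraries, which may be technical. The counts summed to 66584988 and 53223425 in the control, 70986593 and 49840300 in Cl1, and 57635596 and 47016495 in Cl10.

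HOX genes encode homeodomain transcription factors that give cells of the embryo their position along the body axis. Within a cluster they are ordered along the chromosome, with low numbers expressed in front and early and high numbers behind and late, and genes of the same number in different clusters, the paralogs, are most alike. HOX proteins bind DNA together with the TALE cofactors of the PBX and MEIS families. Polycomb complexes keep clusters silent, Trithorax proteins keep them active, and retinoic acid turns on genes at the low-numbered end. Many adult epithelia and carcinomas express HOX genes, and HOXB7 has been studied in oral squamous carcinoma.

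DUSP1 (ENSG00000120129) had 744 and 635 normalized counts in the control libraries, 304 and 354 in Cl1 and 495 and 415 in Cl10, where normalized counts are raw counts divided by effective library size (edgeR's TMM) and brought to the average library total. All 4 clone libraries lay below both controls. The log2 fold change was -1.07 (SE 0.149, adjusted p = 0.000292) in Cl1 and -0.59 (SE 0.134, adjusted p = 0.0113) in Cl10 by edgeR's quasi-likelihood test. A count per gene cannot show if exon 2 was retained. The squamous and basal markers KRT5, KRT14, KRT6A and TP63 were abundant in every library. KRT5, at 312851 and 255906 raw counts, was the most abundant of the 8 listed in the control and in Cl1, and KRT14 lay above it in Cl10. Of 7 salivary acinar markers, 6 had at most 3 raw counts in every library, PIP and SMR3B among them with 0, and the seventh, MUC7, had at most 4. Of 4 endothelial markers, KDR had 0 counts and PECAM1 at most 2. Of 7 fibroblast markers, LUM had 0 counts and COL1A2 at most 2, whereas COL1A1 had 2095 and 1432 in the control, COL3A1 1285 and 934 and PDGFRA 58 and 27. COL1A1 and COL3A1 were lower in Cl10 on the adjusted p alone, with log2 fold changes of -0.67 (adjusted p = 0.00192) and -0.54 (adjusted p = 0.00698). Of 5 leukocyte markers, CD3E had at most 3 counts. PTPRC had 2 and 2 counts in the control, 14 and 7 in Cl1 and 9 and 6 in Cl10, LYZ had 0 and 2, 8 and 5 and 3 and 5, and neither was tested. CD68 had 12 and 12, 16 and 9 and 26 and 10 and did not pass the test. CDH5, another endothelial marker, had 7 and 5 counts in the control and 41 and 12 in Cl10, with a log2 fold change of 2.28 (SE 0.623, adjusted p = 0.0229). VWF, also an endothelial marker, had 291 and 141 counts in the control and did not pass the fold threshold in either clone. In Cl1 it was higher on the adjusted p alone, at 0.93 (adjusted p = 0.0102). In Cl10 against Cl1, edgeR called VWF lower at -1.05 (adjusted p = 0.000247) and CDH5 higher at 2.49 (adjusted p = 0.00589). COL1A1 and COL3A1 were lower there on the adjusted p alone, at -0.78 (adjusted p = 2.17e-06) and -0.36 (adjusted p = 0.00848). Whether cells with these markers contributed to HOX counts was not tested.

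Of the 39 HOX genes, 32 were on in the control, meaning at least 0.5 CPM (counts scaled to the raw library total) in both libraries. Another 4 were at trace level, with more than 3 raw counts in at least 1 library but under that level, and 3 were at the floor of at most 3 raw counts. Those on included 9 of 10 HOXB genes, 8 of 9 HOXC genes and 4 of 9 HOXD genes. HOXA, HOXB and HOXC were therefore expressed along nearly their whole length, from the low-numbered genes, linked to the hindbrain and neck, to the genes of group 13, linked to the most posterior body. HOXD was expressed only in part. HOXB1, HOXD3 and HOXD4 were at the floor. HOXD4 had 0 counts in all 6 libraries, and HOXD3 had 1 count in 1 control library. A count of 0 allows up to 3 counts, which is 0.0423 to 0.0638 CPM across the 6 libraries. HOXB1, a hindbrain gene, had 0 counts in the control and in Cl10, and 5 and 1 in Cl1. The trace genes were HOXC5, HOXD1, HOXD9 and HOXD12. Only 32.7% of the exon bases of HOXC5 are unshared with other entries, so its level is uncertain. The second identifier of HOXC5 had 0 counts in all 6 libraries and was left out of these numbers. Floors and intervals here cover counting error only.

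**Figure D1:**
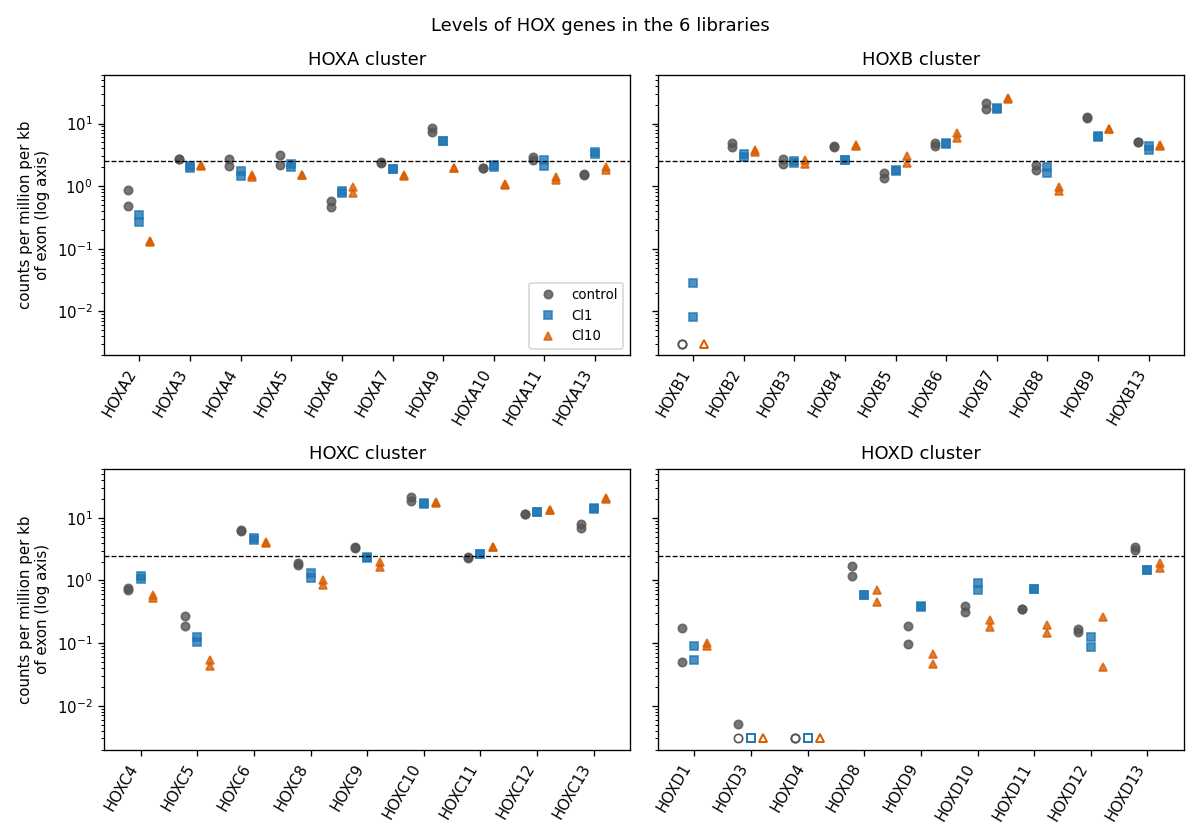
CPM per kilobase of exon (log axis) of HOX genes in the 6 libraries, by cluster and in order of paralog number. Circles are control libraries, squares Cl1 and triangles Cl10, open symbols at the bottom are counts of 0, and the dashed line is the median of all genes tested, 2.49. In the control HOXC10 and HOXB7 stand highest and, in HOXD, only HOXD13 lies above the line.

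Levels of different genes are compared as CPM per kilobase of exon. The median over 20013 tested genes with an annotated length was 2.49 on this scale in the control. HOXC10 (ENSG00000180818, chr12:53985065-53990279, hg38), a gene of hindlimb and lumbar identity, was highest at 20.01 ± 1.65 (SD, n = 2), above 88.0% of tested genes. HOXB7 (ENSG00000260027) followed at 18.9 ± 2.88, and the SD of HOXB7 does not separate it from HOXC10. HOXB9 at 12.5 ± 0.559 and HOXC12 at 11.6 ± 0.133 came next, a difference larger than their SDs that was not tested. HOXA9, a gene known from blood stem cells and leukaemia, led its cluster at 8.04 ± 0.828, and HOXA11 stood at 2.81 ± 0.223. HOXC13, a regulator of hair and nail keratins, stood at 7.44 ± 0.779, and HOXB13, a gene of prostate epithelium, at 5.07 ± 0.0975. The HOXD cluster was lowest, with HOXD13 at 3.20 ± 0.2503, HOXD8 at 1.43 ± 0.347 and HOXD10 at 0.351 ± 0.0585.

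The order inside a cluster depended little on the exon length used at the top and more below it. HOXC10, HOXB7, HOXA9 and HOXD13 led their clusters with each of the 4 lengths tried. HOXC6 was among the top 3 of HOXC with the canonical transcript length, at 13.1, and with bases unshared on the same strand, at 7.47. HOXB6 took the place of HOXB13 with each of the 3 other lengths, HOXA11 left the top 3 of HOXA with each of them, and HOXD11 took the place of HOXD10 with both unshared lengths. HOXA7 reached 6.40 when only bases shared with no gene on either strand were counted. Summed over a cluster, HOXA had 30.5 ± 2.68 CPM per kilobase (SD, n = 2) in the control, HOXB 55.8 ± 3.29, HOXC 53.8 ± 2.27 and HOXD 5.75 ± 0.526. In Cl1 the sums were 25.2 ± 0.209 for HOXA, 44.3 ± 0.750 for HOXB, 55.4 ± 0.466 for HOXC and 4.13 ± 0.0650 for HOXD. In Cl10 the HOXA sum was 15.9 ± 0.382 and the HOXD sum 2.99 ± 0.254, while HOXB had 58.2 ± 1.66 and HOXC 62.2 ± 1.13. Within HOXC, HOXC13 went from 7.44 in the control to 20.5 in Cl10, whereas the median log2 fold change of tested HOXC genes was -0.41. These sums are descriptions and were not tested. In bulk RNA, fewer cells that express a gene and less RNA per cell cannot be told apart.

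The first comparison asked which HOX genes changed in Cl1. Of 36 HOX genes tested, 4 were called higher and 3 lower (adjusted p below 0.05, and more than 1 log2 unit from 0). Over all 20153 genes tested, 4.27% were called higher and 3.27% lower. On the adjusted p alone, 6 HOX genes were higher and 11 lower, against 12.4% and 12.8% of all genes. The median log2 fold change was -0.26 over the HOX genes and -0.01 over all genes. The rises lay at the high-numbered end of HOXA and inside HOXD, and the genes called lower were 1 of HOXA and 2 of HOXD; no HOXB or HOXC gene was called.

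HOXA13, needed for the digits and the genital tubercle, had 431 and 455 normalized counts in the control and 987 and 1047 in Cl1. Both Cl1 libraries were above both controls, and HOXA13 rose 2.30-fold, a log2 fold change of 1.20 (SE 0.128, adjusted p = 3.87e-05). In HOXD the neighbours HOXD9, HOXD10 and HOXD11, genes of the limb skeleton, rose together from low levels. HOXD9 had 12 and 19 raw counts in the control and 52 and 35 in Cl1, with a log2 fold change of 1.52 (SE 0.408, adjusted p = 0.0165). HOXD10 had 55.0 and 44.1 normalized counts in the control and 105 and 130.0 in Cl1, with 1.23 (SE 0.251, adjusted p = 0.00363). HOXD11 had 42.3 and 41.9 and 92.2 and 90.2, with 1.12 (SE 0.256, adjusted p = 0.00723). HOXD10 and HOXD11 share exon bases on the same strand, with 81.8% and 78.6% unshared, so their counts may not be fully separate. The control and Cl1 libraries did not overlap for any of these 3 genes. Around them HOXD8 and HOXD13 fell. HOXD8 had 176 and 252.7 normalized counts in the control and 92.2 and 91.4 in Cl1, a log2 fold change of -1.21 (SE 0.220, adjusted p = 0.00175). HOXD13 had 411 and 467 and 218 and 204, and -1.05 (SE 0.156, adjusted p = 0.000459). HOXD12, between HOXD11 and HOXD13, did not pass the test, with -0.49 from 26 and 23 counts in the control. HOXA2, a gene of the hindbrain and the second pharyngeal arch, had 64.3 and 116 normalized counts in the control and 48.7 and 36.3 in Cl1, a log2 fold change of -1.05 (SE 0.324, adjusted p = 0.0316).

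HOXC13 ended just under the fold threshold at 0.99 (SE 0.119, adjusted p = 0.000101), from 915 and 1078 normalized counts to 1944 and 2003, and so did HOXB9 at -0.93 (SE 0.110, adjusted p = 9.55e-05). The 19 HOX genes that did not pass the adjusted p had log2 fold changes between -0.94 and 0.71. The calls of lower genes depended on the second control library. Without control replicate 2, no HOX gene was called lower. HOXD8 at -0.93 (adjusted p = 0.0012) and HOXD13 at -0.96 (adjusted p = 2.36e-06) then missed only the fold threshold, and HOXA2 at -0.58 also missed the adjusted p, while edgeR called 5 genes higher, HOXC13 among them at 1.11. HOXD9 missed the adjusted p without control replicate 1 (log2 fold change 1.06) and without Cl1 replicate 1 (1.45), where HOXC13 passed at 1.01, and HOXA2 missed it without Cl1 replicate 2 (-0.87). With DESeq2, HOXA2 (adjusted p = 0.0627) and HOXD9 (adjusted p = 0.0640) lost their calls.

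The second comparison asked the same of Cl10. Of 35 HOX genes tested, 1 was called higher and 8 lower. Over all 19875 genes tested, 5.98% were called higher and 7.44% lower. On the adjusted p alone, 5 HOX genes were higher and 18 lower, against 20.6% and 21.8% of all genes. The median log2 fold change was -0.62 over the HOX genes and -0.01 over all genes. It was -0.83 in HOXA, -0.41 in HOXC, -0.83 in HOXD and -0.00 in HOXB. These values are not relative to the surrounding genes. The sign of several HOXA genes and of HOXB3, HOXC4, HOXC10 and HOXD12 flips when the median of their neighbours is subtracted. It must do so for a gene between that median and 0. HOXC10 turned from -0.198 to 0.40. The genes called lower included HOXA2, HOXA9, HOXA11, HOXD8, HOXD11, HOXB8 and HOXC5.

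HOXA9 (ENSG00000078399) had 1273 and 1497 normalized counts in the control and 330.1 and 337 in Cl10. It fell 4.13-fold, a log2 fold change of -2.05 (SE 0.116, adjusted p = 7.17e-05), with both Cl10 libraries far below both controls. HOXA2 (ENSG00000105996) had 64.3 and 116 and then 17.7 and 16.7, a log2 fold change of -2.36 (SE 0.382, adjusted p = 0.00293). HOXA11, a gene of the forearm and the uterus, had 399 and 454 and 208 and 188, with -1.10 (SE 0.137, adjusted p = 0.00102). All these groups were separated. HOXA3, HOXA4, HOXA5, HOXA7 and HOXA10 had log2 fold changes between -0.86 and -0.33 with adjusted p under 0.05, which is under the fold threshold. HOXA6 and HOXA13 did not pass, at 0.71 and 0.31.

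Outside HOXA, HOXD8 had 176 and 252.7 normalized counts in the control and 67.8 and 103 in Cl10, a log2 fold change of -1.33 (SE 0.267, adjusted p = 0.00731), and with HOXA2 it was called lower in each clone. HOXD11 had 42.3 and 41.9 and 17.7 and 22.7, with -1.06 (SE 0.312, adjusted p = 0.0305). HOXB8, a trunk gene, had 245 and 296 and 114 and 130.4, with -1.14 (SE 0.171, adjusted p = 0.00217). HOXC5 fell from 29 and 16 raw counts to 4 and 4, with -2.25 (SE 0.508, adjusted p = 0.0109); only 32.7% of its exon bases belong to no other annotated gene, so its count is uncertain. HOXC13 was the only HOX gene called higher, from 915 and 1078 normalized counts to 2791 and 2662, a log2 fold change of 1.46 (SE 0.101, adjusted p = 0.000124). Its Cl10 libraries were above all control libraries. HOXB5, HOXB6, HOXB7 and HOXC11 were higher on the adjusted p alone, at 0.83, 0.49, 0.40 and 0.57. HOXC8, at -0.99, and HOXC9, at -0.90, lay just under the threshold on the other side. HOXD9 was too low to be tested, with 12 and 19 counts in the control and 5 and 6 in Cl10. With DESeq2, HOXC5 (adjusted p = 0.0560) and HOXD11 (adjusted p = 0.154) lost their calls, and without Cl10 replicate 1, HOXC5 (adjusted p = 0.0603) and HOXD11 (adjusted p = 0.188) did so as well, while HOXB5 was called higher at 1.01 and HOXC8 and HOXC9 lower at -1.14 and -1.03. Without Cl10 replicate 2, HOXD11 missed the threshold (adjusted p = 0.0586) and HOXD13 passed it at -1.03. Leaving out control replicate 1 added HOXA5 at -1.09, and leaving out control replicate 2 added HOXC8 at -1.04.

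**Figure D2:**
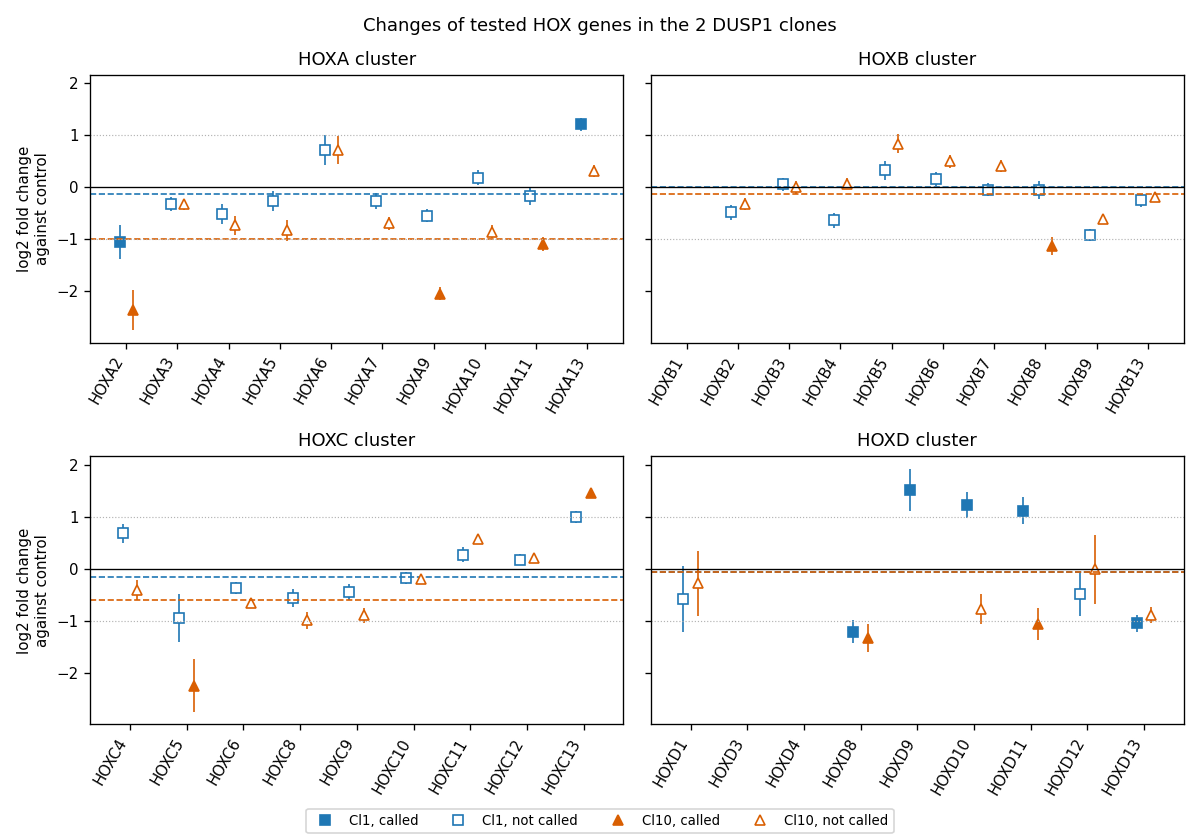
Log2 fold change against the control of tested HOX genes in Cl1 (squares) and Cl10 (triangles), with standard error bars; filled symbols are called, dotted lines mark the fold threshold and dashed lines the median of the 50 nearest tested genes outside each cluster. In Cl10 the HOXA genes lie on both sides of the line at -0.99, and in HOXD the genes HOXD9, HOXD10 and HOXD11 are above 0 in Cl1.

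The promoters of HOXA2, HOXA9 and HOXD11 are shown because these genes had the largest called changes among those with an entry at their own start in RefSeq (GRCh38.p14). HOXD9, whose change between the clones was larger, had no entry and is named only. The entry for HOXC5 is a start shared with HOXC4, and it is not printed. Of the HOX genes, 20 had an entry. The 250 bases before the start are given 5′ to 3′, with TAAT, the core that homeodomains bind, in capitals on either strand (ATTA).
HOXA2 promoter, chr7:27102684-27102933, minus strand: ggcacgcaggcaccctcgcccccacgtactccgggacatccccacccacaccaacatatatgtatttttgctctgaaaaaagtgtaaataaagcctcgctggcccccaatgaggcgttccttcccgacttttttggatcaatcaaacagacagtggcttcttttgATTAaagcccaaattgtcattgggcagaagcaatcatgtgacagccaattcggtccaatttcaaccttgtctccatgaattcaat
HOXA9 promoter, chr7:27165538-27165787, minus strand: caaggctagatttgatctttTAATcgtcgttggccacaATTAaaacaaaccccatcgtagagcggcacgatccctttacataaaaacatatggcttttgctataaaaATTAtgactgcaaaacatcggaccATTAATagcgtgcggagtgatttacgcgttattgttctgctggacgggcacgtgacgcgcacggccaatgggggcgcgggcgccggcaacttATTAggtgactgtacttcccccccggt
HOXD11 promoter, chr2:176107030-176107279, plus strand: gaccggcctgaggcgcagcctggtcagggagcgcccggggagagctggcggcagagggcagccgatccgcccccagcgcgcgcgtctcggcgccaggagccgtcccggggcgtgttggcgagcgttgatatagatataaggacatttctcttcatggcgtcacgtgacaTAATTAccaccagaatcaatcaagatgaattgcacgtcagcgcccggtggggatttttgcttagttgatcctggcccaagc
TAAT occurred at 6 positions in the HOXA9 promoter, 2 in HOXD11 and 1 in HOXA2. Of 34943 promoters, 47.5% held at least 1 such match, and so did 19 of 26 distinct HOX promoters. TGATNNAT, the PBX and HOX form, was in 6.5% of all promoters and in 3 of the 26, HOXA2 and HOXD11 among them. TGANTCA, bound by AP-1, was in 6.6% and in none of the 26. GGGCGG, bound by SP1, was in 42.5% and in 13 of the 26, HOXD11 among them. The count of CG pairs was 8 for HOXA2, 20 for HOXA9 and 23 for HOXD11, beside a median of 11 over all promoters and 19.5 over the HOX promoters. All motifs were searched on both strands and may overlap. A match describes the letters and is not a binding site.

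The difference between the clones was tested directly, without the control. Of 34 HOX genes tested in Cl10 against Cl1, edgeR called 0 higher and 8 lower. Over all 19818 genes tested, 4.47% were called higher and 6.28% lower. On the adjusted p alone, 7 HOX genes were higher and 15 lower, against 24.9% and 24.1% of all genes, and at an unadjusted p under 0.05 the counts were 7 and 16, against 27.8% and 27.2%. DESeq2 called 0 higher and 7 lower. The largest differences were in HOXD. HOXD9 had 52 and 35 raw counts in Cl1 and 5 and 6 in Cl10, a log2 fold change of -2.82 (SE 0.442, adjusted p = 0.000181). HOXD11 had 92.2 and 90.2 normalized counts in Cl1 and 17.7 and 22.7 in Cl10, with -2.18 (SE 0.289, adjusted p = 4.98e-05). HOXD10 had 105 and 130.0 and 32.4 and 25.1, with -2.002 (SE 0.265, adjusted p = 4.82e-05). The clones thus differed over HOXD9 to HOXD11, whereas HOXD8, at -0.11 (SE 0.242, adjusted p = 0.725), and HOXD13, at 0.16 (SE 0.153, adjusted p = 0.407), did not pass the test.

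In HOXA, HOXA9 had 952 and 938 normalized counts in Cl1 and 330.1 and 337 in Cl10, a log2 fold change of -1.50 (SE 0.0958, adjusted p = 1.37e-07). HOXA2 had -1.30 (SE 0.360, adjusted p = 0.00910). HOXA10, a gene of the uterus and of blood progenitors, had 400.1 and 413 normalized counts in the control, 483 and 432 in Cl1 and 231 and 215 in Cl10, with -1.03 (SE 0.125, adjusted p = 2.35e-05) between the clones. HOXB8 had 239 and 283 and 114 and 130.4, with -1.09 (SE 0.167, adjusted p = 0.00016). HOXC4, also known from lymphocytes, had 119 and 113 in the control, 179 and 193 in Cl1 and 83.5 and 90.9 in Cl10, with -1.09 (SE 0.182, adjusted p = 0.00031); it was not called in either clone against the control. HOXA13 was lower in Cl10 than in Cl1 at -0.89 (SE 0.0923, adjusted p = 6.36e-06), which is under the fold threshold. HOXC13 was higher in Cl10 at 0.47 (SE 0.0624, adjusted p = 4.95e-05), also under it. With DESeq2, HOXA2 missed the threshold between the clones (adjusted p = 0.0756). Without Cl1 replicate 1, HOXA2 (-1.07) and HOXA10 (-0.95) lost their calls, without Cl10 replicate 2 HOXA10 did (-0.98), and HOXB8 did without Cl1 replicate 2 (-0.98) or Cl10 replicate 1 (-0.99). HOXA11 was called without Cl1 replicate 2 (-1.12), and HOXA10 was not called with library size only (-0.96). Side by side, HOXA2 and HOXD8 were called lower in both clones, HOXD11 was called higher in Cl1 and lower in Cl10, and 23 HOX genes were called in neither. Both clones were set against the same control libraries, so these calls are not independent.

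**Figure D3:**
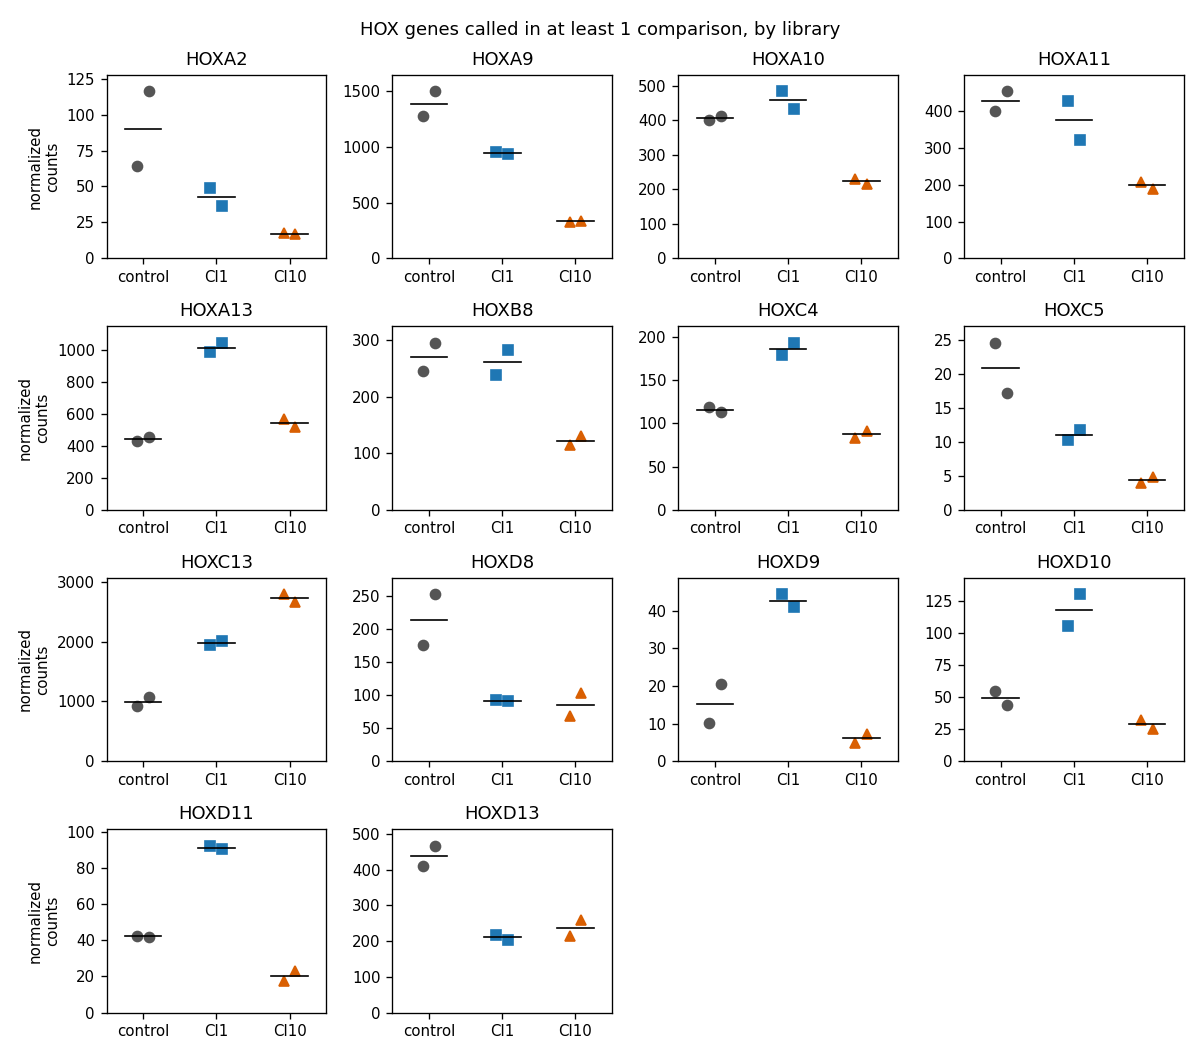
Normalized counts of HOX genes called in at least 1 of the 3 comparisons, by library, with the mean of each group as a line and each axis starting at 0. HOXD9, HOXD10 and HOXD11 are highest in Cl1 and lowest in Cl10, and HOXC13 is highest in Cl10.

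The genes around the clusters were measured in the same fits. In Cl10, the 50 tested genes nearest to HOXA on chromosome 7, 25 on each side and outside the cluster, had a median log2 fold change of -0.99. Of these, 46 were below 0 and 24 were called lower. The median around HOXC on chromosome 12 was -0.60, with 8 called lower and 2 higher, around HOXB on chromosome 17 it was -0.13, and around HOXD on chromosome 2 it was -0.07. In Cl1 the same medians were -0.14 for HOXA, -0.15 for HOXC, 0.01 for HOXB and -0.05 for HOXD. By distance from HOXA, the median in Cl10 was -1.01 over 20 genes within 2 Mb and -1.07 over 45 genes between 2 and 5 Mb. It was -0.70 over 48 genes between 5 and 10 Mb and -0.56 over 91 genes between 10 and 20 Mb. Over all 968 tested genes of chromosome 7 outside the cluster it was -0.19. The lower HOXA level of Cl10 therefore came with lower levels of the surrounding genes, and its source was not tested.

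With the median of the 50 neighbours subtracted, the HOXA picture in Cl10 changed. HOXA11 was at -0.11 and lost its call, HOXA2 was at -1.37 and HOXA9 at -1.06 and remained called, and HOXA3, HOXA4, HOXA5, HOXA7 and HOXA10 turned to values between 0.13 and 0.66. HOXA6 (1.70), HOXA13 (1.30) and HOXC11 (1.17) were then called higher, beside HOXC13 at 2.06. HOXD11, at -0.99, lost its call, and HOXD8 (-1.26), HOXB8 (-1.01) and HOXC5 (-1.66) kept theirs. HOXB8 was only just past the fold threshold, and the median subtracted for it pooled -0.07 on one side of HOXB and -0.24 on the other. Between the clones, the calls of HOXD9, HOXD10 and HOXD11 held after the subtraction, at -2.83, -2.01 and -2.19, and the other 5 were lost, with HOXB8 at -0.999 just inside the fold threshold, HOXC4 at -0.63, HOXA9 at -0.53, HOXA2 at -0.34 and HOXA10 at -0.07. In Cl1 the subtraction left HOXD8 as the only gene called lower, with HOXA2 at -0.91 and HOXD13 at -0.998, and it added HOXC13 at 1.14 to the genes called higher.

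**Figure D4:**
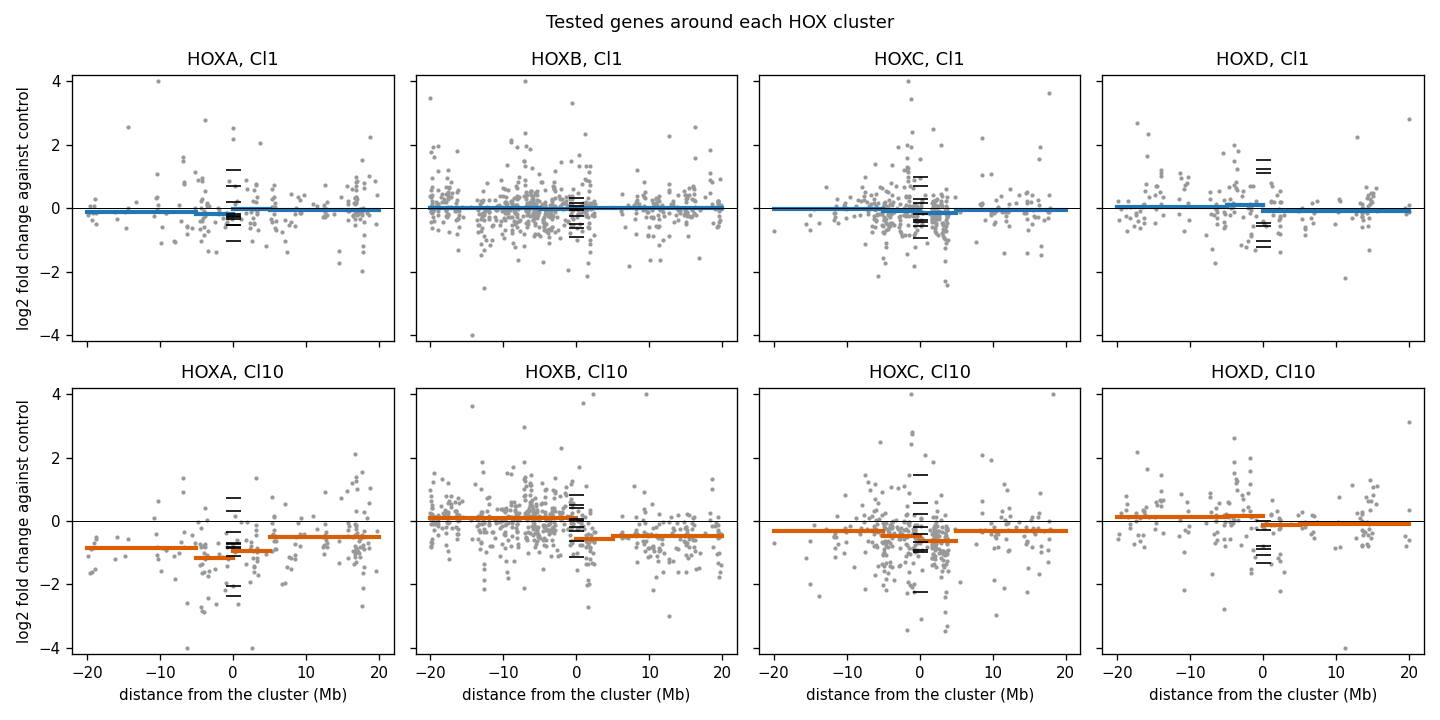
Log2 fold change against the control of tested genes within 20 Mb of each HOX cluster (dots, drawn at 4 or -4 where beyond), by distance from the cluster, in Cl1 (top) and Cl10 (bottom). Coloured lines are medians within 5 Mb and from 5 to 20 Mb on each side, and black dashes at distance 0 are the HOX genes; around HOXA in Cl10 the lines within 5 Mb lie at -1.16 and -0.96, and around HOXB in Cl10 they lie at 0.08 on one side and -0.58 on the other.

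Noncoding RNAs of the clusters were read beside the coding genes. Of 24 listed, 20 were in the table and 19 were tested in Cl1, with 2 called higher and 1 lower, and 18 in Cl10, with 3 called higher and 3 lower. DESeq2 called 1 higher and 1 lower in Cl1, and 3 and 3 in Cl10. Over all genes tested, edgeR called 4.27% higher and 3.27% lower in Cl1, and 5.98% and 7.44% in Cl10, which is the background for the other lists as well. At an unadjusted p under 0.05, 18.2% of all genes were higher and 19.1% lower in Cl1, and 24.99% and 26.3% in Cl10. HOTTIP, which overlaps the start of HOXA13 on the opposite strand, had 69.4 and 67.7 normalized counts in the control and 110.1 and 175 in Cl1, a log2 fold change of 1.04 (SE 0.257, adjusted p = 0.0109). HOXD-AS2, which overlaps HOXD8, rose from 8 and 3 raw counts to 25 and 15 in Cl1, with 1.90 (SE 0.550, adjusted p = 0.0225), and HAGLR, which overlaps HOXD1 and HOXD3, fell with -1.09 (SE 0.156, adjusted p = 0.000366). In Cl10, HOXA10-AS fell from 121 and 111 normalized counts to 13.8 and 16.7, with -2.92 (SE 0.260, adjusted p = 0.000273). It overlaps HOXA9 and HOXA10 on the opposite strand. HOXA11-AS had -1.46 and HOTAIRM1 had -1.36. HOXB-AS3, HOXB-AS4 and HOXC13-AS rose in Cl10, by log2 fold changes of 1.03, 1.08 and 1.05. The strand setting of the counting is not given in the sources used here, so that reads of a HOX gene and its antisense partner cannot be told apart. EVX1, a homeobox gene beside HOXA13, rose in Cl1 from 24.5 and 8.60 to 76.0 and 78.5 normalized counts, with 2.16 (SE 0.390, adjusted p = 0.00168), and had -0.80 in Cl10, which did not pass the test.

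Genes for proteins that work with or regulate HOX genes were read in the same fits. Of 9 TALE cofactors tested, edgeR and DESeq2 each called 0 in Cl1, where 0 were higher and 3 lower at an unadjusted p under 0.05, and edgeR called 1 in Cl10, PKNOX2, which fell with -2.37 (SE 0.319, adjusted p = 0.00136) from 66 and 64 raw counts. DESeq2 also called 1 TALE gene lower in Cl10, and 2 were higher and 4 lower there at the unadjusted p. Of 31 Polycomb genes, both tools called 0 in Cl1, with 3 higher and 13 lower at the unadjusted p, and edgeR called 2 lower in Cl10, CBX7 with -1.11 (SE 0.0806, adjusted p = 0.000142) and PCGF3 with -1.001 (SE 0.0794, adjusted p = 0.000193), both subunits of PRC1, while DESeq2 called 1 Polycomb gene lower. At the unadjusted p, 12 Polycomb genes were higher and 13 lower in Cl10. Of 22 Trithorax and H3K27 demethylase genes, both tools called 0 in either clone. At the unadjusted p, 3 were higher and 2 lower in Cl1, and 6 higher and 3 lower in Cl10. Summed over this list, normalized counts were 136622 and 106166 in the control, 127276 and 125067 in Cl1 and 128426 and 130300 in Cl10. The control libraries thus lay on either side of every clone library. Among 12 genes of retinoic acid signalling, of which 9 were tested, CYP26A1, which breaks down retinoic acid, rose in both clones, from 47.4 and 50.5 normalized counts in the control to 199 and 180.4 in Cl1 and 450.0 and 392 in Cl10, with log2 fold changes of 1.96 (SE 0.218, adjusted p = 5.46e-05) and 3.11 (SE 0.166, adjusted p = 5.68e-05). RXRA, the receptor partner, rose in Cl1 with 1.09 (SE 0.133, adjusted p = 0.000113), and RXRG fell in Cl10 from 14 and 21 raw counts to 0 and 2 (edgeR adjusted p = 0.0150, not called by DESeq2). Of the CDX, EVX and GBX genes, only EVX1 was called. SOX2 was the 1 squamous marker that edgeR called in either clone, with -1.73 (SE 0.0841, adjusted p = 4.47e-05) in Cl10. In Cl1, SOX2 was lower on edgeR's adjusted p alone, at -0.51 (adjusted p = 0.00464). CDH1 was higher on the adjusted p alone, at 0.84 (adjusted p = 0.000733) in Cl1 and 0.35 (adjusted p = 0.0262) in Cl10. The other listed squamous markers did not pass the adjusted p in either clone.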

How the data were processed

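Counts are raw reads per gene as deposited: the authors used HISAT2 for alignment (hg38) and HTSeq for counting, and the labels also name StringTie and DESeq. Versions, annotation and the strand setting are not given in the sources used here. The labels name a stranded mRNA kit. Of 58735 identifiers, 58207 were found in GENCODE v44. SOX2 libraries were not analysed here.

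Each comparison used only its own 4 libraries in edgeR 4.0.16 (R 4.3.3): filterByExpr, TMM, estimateDisp, glmQLFit, glmQLFTest and Benjamini-Hochberg adjustment over all genes tested. SE was taken from the F statistic, as the size of the unshrunk log2 fold change over its root. Levels per kilobase use the union of annotated exons. The method was tested on simulated data. A chi-square test between libraries of 1 group, on genes with at least 100 counts, gave an unadjusted p under 0.05 for 58.5%, 47.3% and 23.6% of genes in the control, Cl1 and Cl10. Alternatives were DESeq2 1.42.0 and its size factors, library size, other count filters, no fold threshold, 1 fit over 6 libraries, a replicate block, changes relative to the median of 50 neighbours (local median), each library left out, other thresholds for on and other exon lengths. Genes given in full are the HOX genes called in any comparison and the 3 highest per kilobase of each cluster, apart from 1 gene left out of text and plots; from other lists, the called genes, at most 4 a list, and DUSP1. Promoters were meant for the 3 largest called changes. HOXD9 had no entry, and HOXC5 was passed over after its entry was seen. Members and lists were chosen with earlier results of these data known. The distances from the clusters were added after the data were seen.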

Additional observations from a re-analysis of the deposited data

Results flagged for a closer look

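In a direct test of Cl10 against Cl1, 8 of 34 HOX genes tested were lower in Cl10 by more than 1 log2 unit with an adjusted p under 0.05 from edgeR's quasi-likelihood test, and 0 were higher. Over all genes tested, 6.28% were called lower and 4.47% higher. DESeq2 called 7 HOX genes lower and 0 higher. On the adjusted p alone, 15 HOX genes were lower and 7 higher, and at an unadjusted p under 0.05 the counts were 16 and 7. The log2 fold changes were -2.82 for HOXD9, -2.18 for HOXD11, -2.002 for HOXD10, -1.50 for HOXA9, -1.30 for HOXA2, -1.09 for HOXB8, -1.09 for HOXC4 and -1.03 for HOXA10. HOXD9, HOXD10 and HOXD11 lie next to each other, and HOXD8 on one side and HOXD12 and HOXD13 on the other did not pass the test. HOXA2, HOXA9 and HOXA10 lie in a part of chromosome 7 whose 50 genes nearest to the cluster had a median of -0.97 in the same test, and the median around HOXC4's cluster was -0.46. With the median around each cluster subtracted, HOXD9, HOXD10 and HOXD11 were still called, while HOXA9 (-0.53), HOXA2 (-0.34), HOXA10 (-0.07), HOXC4 (-0.63) and HOXB8 (-0.999) were not. With DESeq2, HOXA2 was not called (adjusted p = 0.0756). The source of these differences was not tested.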

How the results depend on the processing

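The counts of HOX calls were within 1.5 times the reported ones with DESeq2 size factors, library size only, DESeq2, no filter, at least 10 counts in every library, 1 fit over the 6 libraries and the replicate block. The replicate block gave 4 higher and 3 lower in Cl1, 1 and 8 in Cl10, and 0 and 8 between the clones. Same-numbered libraries did not deviate together (correlations across genes of -0.0932, -0.0783 and 0.0205), so the numbers were not taken as pairs. With no fold threshold, 11 genes were lower in Cl1, 5 higher and 18 lower in Cl10, and 7 higher and 15 lower between the clones. With the local median subtracted, 1 was lower in Cl1, 4 higher and 5 lower in Cl10, and 3 lower between the clones. Leaving out 1 library gave 0 to 3 lower in Cl1 and 1 to 2 higher in Cl10; the cause was not tested. A left-out library leaves 1 sample in a group, which is assumed to vary like the others. HOX genes on in the control numbered 32, 29 at 1 CPM, 35 at 0.1 CPM, and 32 from each control library alone.

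Of the values of single genes under the alternatives, 731 kept direction and side of the threshold, 41 gained a call, 29 lost one and 16 changed sign. This tally did not cover every HOX gene in each comparison. Its setting with no fold threshold reuses the main fit, so it could add calls but not lose one or change a sign. That setting gave 9 of the gains in Cl1, 14 in Cl10 and 4 between the clones. With the local median subtracted, the log2 fold changes in Cl10 turned to 0.66 for HOXA3, 0.25 for HOXA4 and 0.15 for HOXA5. HOXA7 turned to 0.29, HOXA10 to 0.13 and HOXC4 to 0.19. Between the clones HOXA11 turned to 0.0421 and HOXA13 to 0.073. Genes outside the tally turned as well, in Cl10 HOXC10 from -0.198 to 0.40, HOXB3 from -0.0029 to 0.13 and HOXD12 from -0.014 to 0.056. Between the clones these included HOXA3 (0.96), HOXA4 (0.75), HOXA5 (0.40), HOXA7 (0.54), HOXC6 (0.19) and HOXC10 (0.44). HOXA6 between the clones, at 0.0061, turned to -0.0011 (all libraries at 10 counts or more) and -0.0007 (replicate block). Leaving out 1 library, HOXA6 between the clones ran from -0.146 to 0.163 and HOXD8 from -0.43 to 0.17, and in Cl1 HOXB8 ran from -0.18 to 0.0896 and HOXA11 from -0.40 to 0.0155. None of these was called.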
